A study of Mus musculus with 8 samples.

Results

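The Runx transcription factors and a set of bone and cartilage genes were followed in cardiac mesenchymal stromal cells (cMSCs) of young and aged mice. The set held 10 genes, namely the Runx factors Runx1, Runx2 and Runx3, their partner Cbfb, the transcription factors Sox9 and Sp7, and the matrix and mineralization genes Alpl, Spp1, Comp and Mgp. They were found on the arrays by the gene name of each probe, which gave 20 of 56605 distinct probes and 10 of 37074 gene names. These genes were chosen from measured values of these same arrays, with the differences between aged and young pools already known, so those differences are given as a description, with no p-value, and nothing is read from how many of the genes passed a test.

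cMSCs are fibroblast-like cells of the heart stroma. For these arrays they were sorted from digested hearts of C57BL/6 mice. The sorted cells carried Sca-1 and PDGFRα on their surface and lacked CD31 (endothelium) and CD45 (leukocytes). RNA from 4 pools from young mice (5 months in the labels, pools numbered 2, 3, 4 and 5) and of 4 pools from aged mice (20 months, pools numbered 1, 2, 3 and 4) was hybridized, each pool to its own 1-colour Agilent array. The series design gives 3 mice to a pool, but a code in the label of aged replicate 4 could stand for 2. Apart from age no treatment or allele distinguished the groups in the labels. The study used male mice of a wild-type line, and a line that carries a CX3CR1 reporter and the CD45.1 allele. The sources do not tie the pools to either line. Nothing in the labels says whether the pools were sorted separately on different days. The standard errors (SE) below come from the limma fit. They rest on the spread between pools, drawn toward a value typical of all genes.

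Runx factors bind DNA as a pair with Cbfb, which does not bind DNA itself and strengthens the grip of its partner. Runx2 is the master regulator of osteoblasts and of cartilage cells on their way to bone, and Sp7 acts downstream of it. Sox9 drives the cartilage programme. Runx1 is best known from blood stem cells and is also made by mesenchymal progenitors, and Runx3 is known from lymphocytes, neurons and cartilage. Each Runx gene is read from a distal and a proximal promoter, which give proteins with different first residues. In the heart these genes are known from valves, from fibroblasts after injury and from calcification of soft tissue.

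The promoter sequences of the Runx genes are shown because the DNA word that Runx proteins bind occurs in them. A search of RefSeq promoter windows (GRCm38.p6, from 250 bases before to 50 bases after the start of a transcript) for TGTGGT and its reverse complement ACCACA, on both strands, found the motif in 4 of 10 windows of the 6 members that matched, which are Runx1, Runx2, Runx3, Cbfb, Alpl and Spp1. Over all 32851 windows the share was 16.8%. Sox9, Sp7, Comp and Mgp had no entry. In the first window of each Runx gene a pair of copies stood in the same orientation with 2 bases between them, and the Runx2 window held 3 copies in all, the other at -80 relative to the start. The spaced pair ACCACANNACCACA, or its reverse complement TGTGGTNNTGTGGT, was found in 7 of 32851 windows (0.0213%). These were the windows of Runx1, Runx2 and Runx3, that of Gm16225, which overlaps the Runx3 window on the other strand, and those of Gm12236, Gm15462 and Olfr24. The 30 bases around the pair are given 5′ to 3′ on the strand of the gene, with the motif in capitals, and below them the stretch of the Spp1 promoter with its single copy.
Runx1 first window, 21 to 50 bases after the start, chr16:92826025-92826054, minus strand: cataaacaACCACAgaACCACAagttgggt
Runx2 first window, 16 to 45 bases after the start, chr17:44814583-44814612, minus strand: cacaaacaACCACAgaACCACAagtgcggt
Runx3 first window, 142 to 113 bases before the start, chr4:135120503-135120532, plus strand: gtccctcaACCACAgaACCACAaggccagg
Spp1 first window, 140 to 111 bases before the start, chr5:104434971-104435000, plus strand: tttttttttttaACCACAaaaccagaggag
The second windows of Runx1, Runx3 and Spp1, the window of Cbfb and both windows of Alpl held no copy. A match is a description of the letters and was not measured as a binding site in these cells.

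Array probes were 60 bases long, and those that the results turn on are shown to tell which stretch of a transcript was read. For the Runx1 probes the first 30 bases are given, since all 3 sites carried the difference described next. The array files list their positions on the mm9 build.
Runx1 A_55_P2746444, chr16:92602576-92602635, minus strand: tccctctttcagccaggtcggtatagccaa
Runx1 A_55_P2183438, chr16:92605785-92605844, minus strand: caggagggcccttggaggccaccaggaaga
Runx1 A_55_P2907714, chr16:92697238-92697297, minus strand: tgaacttttctccgattgtttcttttgaca
Runx2 A_52_P55876, chr17:44951128-44951187, minus strand, capitals from the first ATG: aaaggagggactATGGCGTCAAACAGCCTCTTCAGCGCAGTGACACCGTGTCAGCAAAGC
Comp A_51_P409010, chr8:72905692-72905825, plus strand: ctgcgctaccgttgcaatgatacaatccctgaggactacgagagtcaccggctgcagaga
The listed stretch of the Comp probe spans 134 bases of genome for 60 bases of probe. The first 2 Runx1 probes start 3209 bases apart, and the third starts 94662 bases from the first, upstream of both on the minus strand.

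Signals are given as log2 of the scanner's processed intensity relative to the 75th percentile of the same array, so that 0 is the level of that percentile and a step of 1 is a doubling. Probes differ in how well they bind, so levels are compared between pools for 1 probe, and levels of different probes are not read as relative abundance. The sums over marker genes given below are likewise compared between pools, and bright probes weigh most in them. The 75th percentile itself ran from 478.6 to 816 in young and from 509.5 to 793.1 in aged pools, and 57.8% to 63.4% of spots were well above background. The 8 arrays lay on 1 slide in 2 rows, and each row held 2 pools of each group. All 10 genes had at least 1 probe well above background on all 4 arrays of a group, and 15 of the 20 probes met that limit. For a gene with several such probes, the brightest was taken. A probe that met the limit through the group where it was brighter was favoured to differ, which touches Spp1, Runx3 and the Runx2 probe A_52_P460545, each of them above background in all 4 aged and in 3 young pools.

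Runx1 differed most between the groups among the 10 genes. Its level on A_55_P2746444 was -1.20, -1.99, -1.60 and -1.85 in young replicates 2, 3, 4 and 5, and -0.01, 0.03, 0.09 and 0.20 in aged replicates 1, 2, 3 and 4. All aged pools lay above all young pools, with a gap of 1.20 between the nearest pools, and the aged pools were closer to each other (SD 0.09, n = 4) than the young (SD 0.34, n = 4). The aged mean was 1.74 higher (SE 0.16), which is 3.34-fold. In these bulk samples more cells with a transcript and more transcript per cell cannot be told apart.

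The other 2 Runx1 probes separated the groups as well. On A_55_P2183438 the young pools read -3.14, -3.44, -3.37 and -3.86 and the aged pools -2.0, -1.94, -1.73 and -1.09, in the order of the pool numbers. On A_55_P2907714 the young pools read -2.77, -3.33, -3.72 and -3.28 and the aged pools -2.07, -2.26, -2.14 and -1.74. The differences were 1.77 (SE 0.22) and 1.23 (SE 0.20), and the smallest gaps between a young and an aged pool were 1.14 and 0.51. These probes read the same RNA and are not replicates. Within the slide rows the difference on A_55_P2746444 was 2.02 in row 1 and 1.46 in row 2. It was 1.63 to 1.89 when any 1 pool was left out.

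Runx2, the osteoblast factor, was dim, and the probes that met the limit both had a higher aged mean but by different amounts. The probe taken for the gene, A_65_P18181 (chr17:44633034-44633093), is annotated to a non-coding transcript variant and starts 111891 bases from A_52_P460545. Its young pools read -3.55, -4.02, -3.68 and -3.80 and its aged pools -3.52, -3.32, -3.56 and -3.05. The groups touched, since aged replicate 3 read just below young replicate 2, and the difference was 0.40 (SE 0.14). On A_52_P460545 (chr17:44744925-44744984) the young pools read -4.41, -4.62, -5.06 and -5.33, of which replicate 5 was not well above background, and the aged pools -3.77, -4.37, -4.12 and -3.82. There the aged pools lay above the young by 0.05 at the nearest pair, and the difference was 0.84 (SE 0.22). The probe A_52_P55876, whose sequence with its ATG is printed above, was not well above background in any pool, so that stretch has only a bound.

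**Figure D1:**
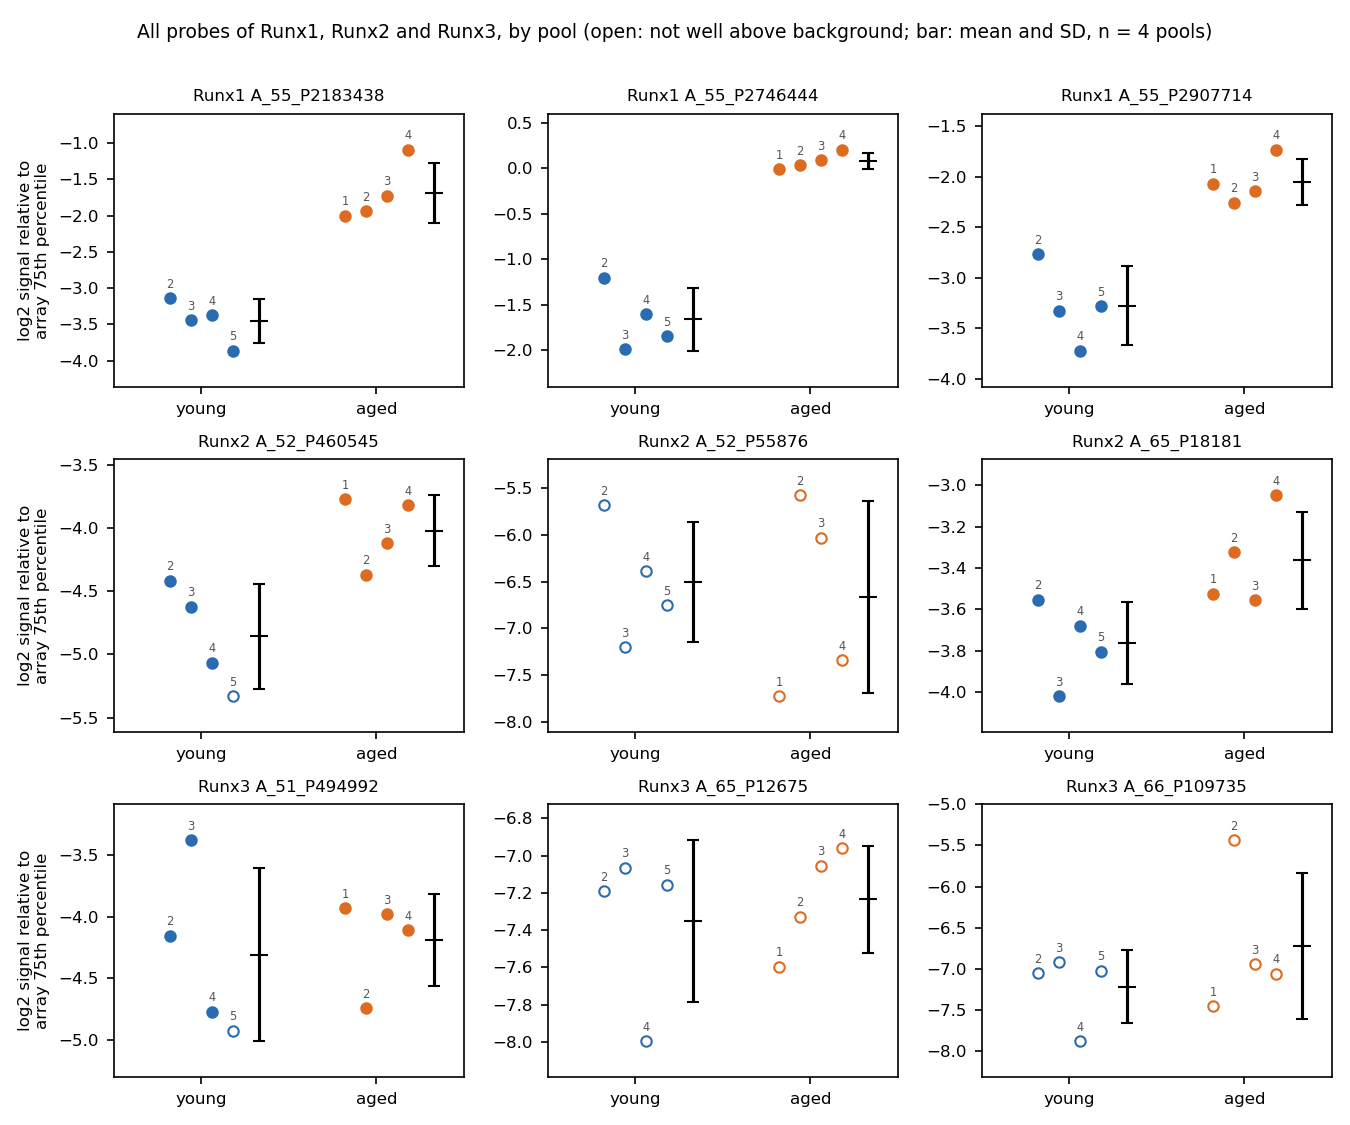
Level of the 9 probes of Runx1, Runx2 and Runx3 in each pool, as log2 signal over the 75th percentile of its array, with young pools in blue and aged pools in orange, pool numbers above the points, and the mean and SD of 4 pools as black bars. Open points were not well above background, and the 3 Runx1 probes have every aged pool above every young pool.

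Runx3 and Cbfb did not separate the groups. Runx3 on A_51_P494992 (chr4:134731959-134732018) read -4.16, -3.38, -4.77 and -4.92 in young and -3.93, -4.74, -3.98 and -4.11 in aged pools, with a difference of 0.12 (SE 0.34), smaller than its error. Young replicate 3 was the highest of all 8 pools and young replicate 5, which was not well above background, the lowest. The other 2 Runx3 probes, A_65_P12675 and A_66_P109735, were not well above background in any pool. Cbfb, the common partner of the Runx factors, read 3.75, 3.55, 3.76 and 3.56 in young and 3.69, 3.81, 3.76 and 3.60 in aged pools on A_55_P2048928 (chr8:107741792-107741851). Its difference was 0.06 (SE 0.09) and the young and aged ranges overlapped.

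Sox9, the cartilage factor, lay in the same range in both groups on both of its probes. On A_55_P2798454 (chr11:112647560-112647619) it read 1.78, 1.88, 1.60 and 1.36 in young and 1.80, 1.74, 1.59 and 1.29 in aged pools, a difference of -0.05 (SE 0.15). On A_55_P2745144 (chr11:112646642-112646701) the difference was -0.08 (SE 0.16), with young pools from -0.67 to 0.08 and aged pools from -0.66 to -0.33.

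Sp7, the osteoblast factor also called osterix, was read by 3 probes of which 1 alone was well above background. That probe, A_66_P117454 (chr15:102187136-102187195), read -1.70, -1.42, -1.70 and -1.84 in young and -1.51, -1.82, -1.79 and -1.45 in aged pools, a difference of 0.02 (SE 0.13). The probe A_52_P236709, 556 bases away, was well above background in 1 pool, aged replicate 2, and A_55_P2742054, 1599 bases away, in none. The last of these reads a coding stretch of the zinc fingers, the DNA-binding part of the protein, and its sequence is set beside the start of the probe that gave a signal. A signal on the first probe alone therefore does not show that the coding transcript was measured.
Sp7 A_55_P2742054, chr15:102188735-102188794, minus strand, above background in no pool: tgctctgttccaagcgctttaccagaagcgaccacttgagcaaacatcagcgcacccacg
Sp7 A_66_P117454, chr15:102187136-102187195, minus strand, above background in all 8 pools: atttttggatcttcctgttctgtcccctgc

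Of the matrix and mineralization genes, Comp separated the groups with the widest gap. It encodes cartilage oligomeric matrix protein, a secreted pentamer of cartilage, tendon and fibrotic tissue that binds collagen. Comp read 4.89, 5.10, 4.75 and 4.39 in young and 5.86, 5.94, 5.85 and 5.63 in aged pools on the probe printed above. All aged pools were higher, by 0.53 at the nearest pair, and the difference was 1.04 (SE 0.15), or 2.05-fold. It was 1.0 and 1.08 within slide rows 1 and 2, and 0.91 to 1.14 with any 1 pool left out.

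Spp1 encodes osteopontin, a secreted phosphoprotein of bone matrix that macrophages also make. On A_51_P358765 (chr5:104869788-104869847) it read -2.46, -3.15, -2.56 and -4.76 in young and -1.96, -1.64, -1.61 and -2.41 in aged pools. All aged pools were above the young pools, but aged replicate 4 and young replicate 2 were only 0.05 apart. The difference was 1.33 (SE 0.48). Young replicate 5, the lowest, was not well above background, and without it the difference was 0.82. With normexp background correction it was 0.69, and 0.88 in the log2 values of the authors. Of 12 tested macrophage genes, 10 were also lowest of the 8 pools in young replicate 5, and Itgam and Ptprc were not. Lyz2 (lysozyme), for example, read -0.16 there and 1.19 to 1.42 in the other young pools. Among the other members, Runx3, Sp7, Alpl and Comp were lowest in that pool too, while Runx1, Runx2, Cbfb, Sox9 and Mgp were not. The share of all genes lowest in that pool was not counted, so nothing is read from the macrophage count. The part of macrophages in the Spp1 values was not tested.

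Alpl and Mgp overlapped between the groups. Alpl encodes tissue-nonspecific alkaline phosphatase, which removes the mineralization inhibitor pyrophosphate. It read 1.19, 0.92, 1.26 and 0.54 in young and 1.30, 1.37, 1.26 and 0.95 in aged pools on A_51_P494125 (chr4:137297658-137297716), a difference of 0.24 (SE 0.17). Its second probe, A_66_P134078, differed by 0.23 (SE 0.20). Mgp encodes matrix Gla protein, an inhibitor of calcification that depends on vitamin K. It read 8.83, 8.86, 8.42 and 8.62 in young and 8.87, 8.64, 8.74 and 9.14 in aged pools on A_51_P426270 (chr6:136821125-136821184), a difference of 0.16 (SE 0.14). Its scanner signal reached 315900 and no spot was saturated.

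**Figure D2:**
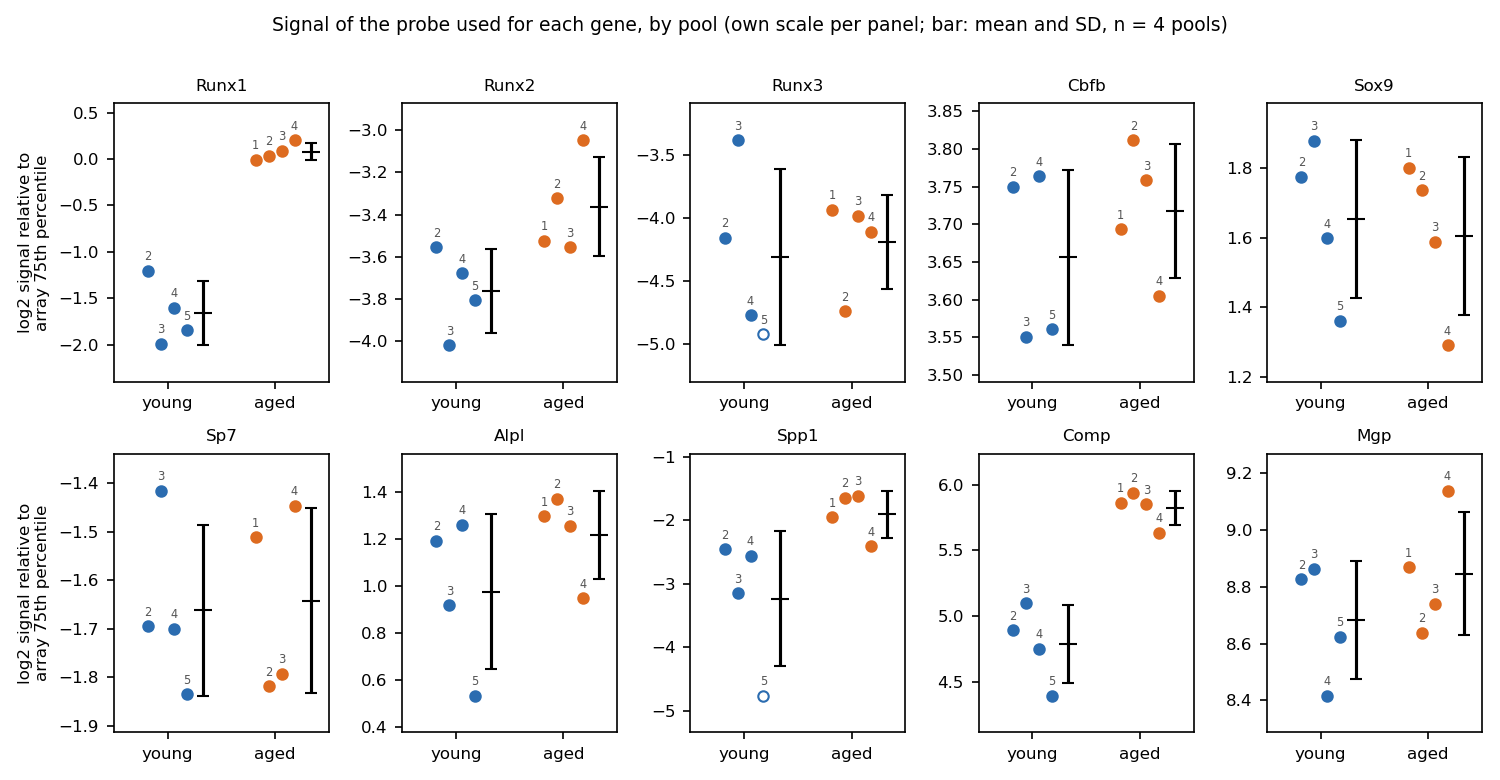
Level of the probe taken for each of the 10 genes in each pool, as log2 signal over the 75th percentile of its array, each panel with its own scale. Points are pools (blue young, orange aged, open where not well above background), bars are the mean and SD of 4 pools, and Runx1, Spp1 and Comp have all aged pools above all young pools.

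Of the 10 genes, 9 had a higher mean in aged pools and 1, Sox9, a lower mean, with a median difference of 0.20 against 0.00 over all genes tested. Aged pools lay above young pools without overlap in 3 of 10 (Runx1, Spp1 and Comp) and below in 0 of 10. Over the 20219 genes tested this was so of 6.68% and 4.05%. In the limma fit over all 20219 genes, 2.37% were higher in aged pools at an adjusted p under 0.05 and 0.801% were lower, and Runx1 and Comp were among the former. Because the same differences had served to choose the genes, nothing is read from these counts.

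**Figure D3:**
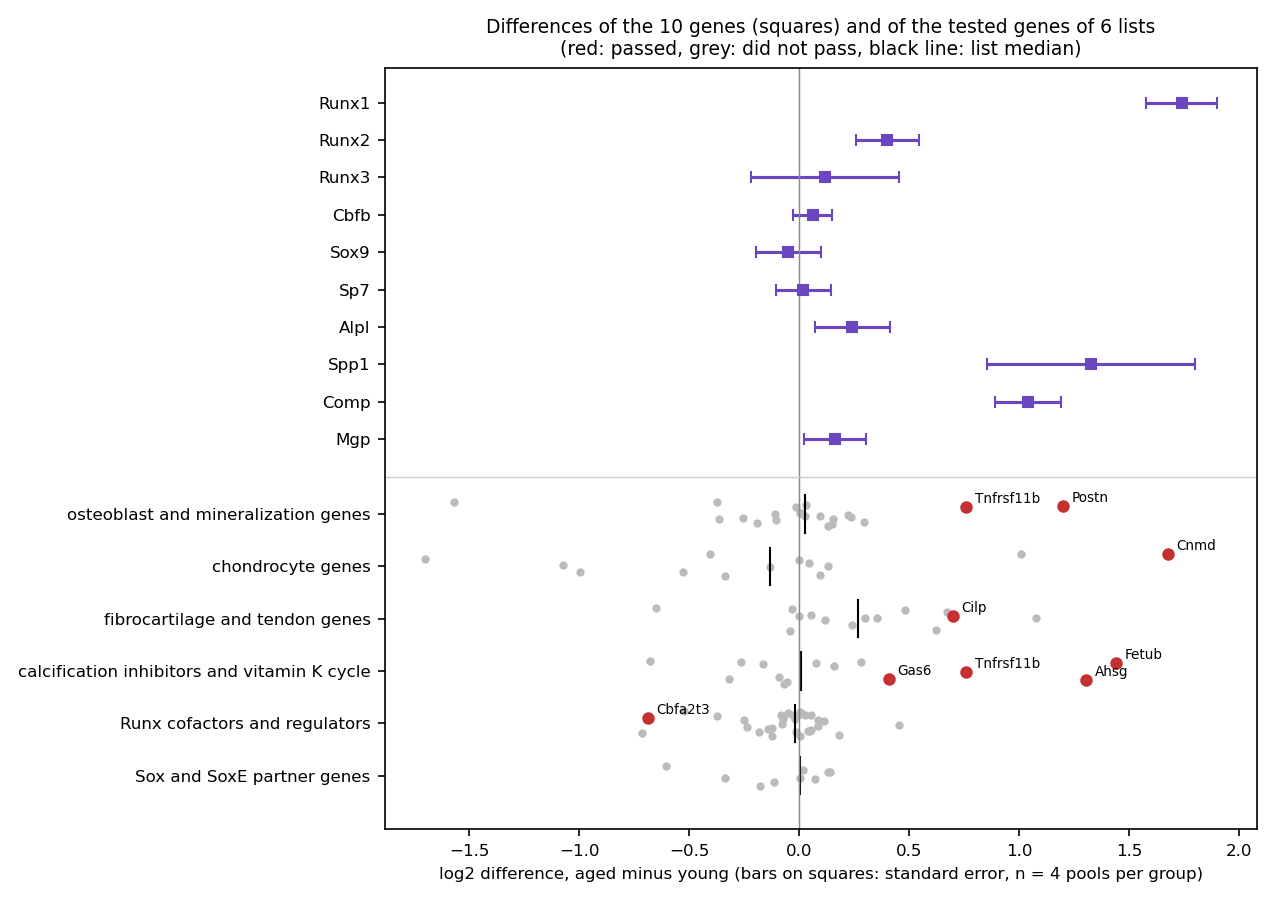
Differences between aged and young pools on the log2 scale. Squares with standard errors are the 10 genes, and dots are the tested genes of the 6 lists, red where limma's adjusted p was under 0.05, with the median of each list as a black line; Runx1 stands at 1.74 and Cnmd at 1.68.

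To see the surroundings of these factors, 6 lists of related genes were examined, 133 genes in all without the members, of which 100 were tested. Of these, 7 rose and 1 fell in limma's test adjusted over all genes, which is 7.0% and 1.0%, beside 2.37% and 0.801% of all genes. The median difference was 0.00, as over all genes. The lists were not tested as sets, and they were drawn up with earlier results of these data known. Nothing is therefore read from these shares, and the adjusted p-values of list genes below are not independent support.

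Among 30 osteoblast and mineralization genes, 21 were tested, 2 rose and none fell, and the median difference was 0.03. Postn, which encodes the matricellular protein periostin, read 4.15, 3.56, 3.80 and 3.67 in young and 4.94, 5.03, 5.05 and 4.96 in aged pools and rose by 1.20 (SE 0.13, limma adjusted p = 0.00225). The study lists Postn among its changed genes on these arrays, so this is not independent. Beyond the arrays, the study also reports higher Postn in aged cMSCs by RT-PCR. Tnfrsf11b, which encodes the RANKL decoy receptor osteoprotegerin, read -2.53, -2.86, -2.79 and -2.63 in young and -1.90, -2.04, -1.81 and -2.02 in aged pools and rose by 0.76 (SE 0.10, limma adjusted p = 0.00584). The collagen genes Col1a1 and Col1a2 had differences of -0.38 and -0.36 and did not pass. The osteocalcin gene Bglap2, singled out after its values were seen, read -1.01, -1.64, -0.84 and -1.74 in young and -2.08, -2.81, -2.76 and -3.87 in aged pools, a difference of -1.57 (SE 0.37, limma adjusted p = 0.0631), and near-identical copies of the gene could share its signal. Ibsp, Dmp1, Sost and Phex, which mark mature bone, were on the arrays but did not reach the limit for signal above background in either group.

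Among 27 chondrocyte genes, 13 were tested, 1 rose and none fell, and the median difference was -0.13. Cnmd, which encodes chondromodulin, a cartilage protein that inhibits vessel growth, read 1.23, 1.29, 1.29 and 0.99 in young and 2.90, 2.4, 2.78 and 3.43 in aged pools. It rose by 1.68 (SE 0.20, limma adjusted p = 0.00367), or 3.20-fold. The cartilage core genes Acan, Hapln1, Matn1, Col9a1 and Col10a1 were among the 14 that did not reach the limit and were not tested. Ucma, a small cartilage matrix protein singled out after its values were seen, had aged pools below all young pools with a difference of -1.70 (SE 0.42, limma adjusted p = 0.0731) and did not pass.

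Among 18 fibrocartilage and tendon genes, 14 were tested and 1 rose, with a median difference of 0.27. Cilp, which encodes cartilage intermediate layer protein, read 3.99, 3.39, 3.67 and 3.30 in young and 4.18, 4.38, 4.19 and 4.38 in aged pools and rose by 0.70 (SE 0.15, limma adjusted p = 0.0488). It passed with only 1 of the 8 pools left out and failed with each of the other 7, with adjusted p up to 0.130. Thbs4, a thrombospondin of the same family as Comp named after its values were seen, had a difference of 1.08 (SE 0.30, limma adjusted p = 0.106).

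Among 17 calcification inhibitors and genes of the vitamin K cycle, 14 were tested, 4 rose and none fell, with a median difference of 0.01. Fetub and Ahsg encode fetuin B and fetuin A, plasma proteins made mainly in liver, of which fetuin A binds calcium phosphate. Fetub read 2.23, 2.19, 2.15 and 1.55 in young and 3.42, 3.21, 3.39 and 3.87 in aged pools and rose by 1.44 (SE 0.19, limma adjusted p = 0.00584). Ahsg read 4.01, 3.40, 3.21 and 2.80 in young and 4.51, 4.63, 4.49 and 5.03 in aged pools and rose by 1.31 (SE 0.24, limma adjusted p = 0.0270). Gas6, a vitamin K-dependent ligand of the TAM receptors, rose by 0.41 (SE 0.09, limma adjusted p = 0.0497), and Tnfrsf11b was the fourth. Ahsg and Gas6 each failed to pass in 7 of the 8 fits that left out 1 pool, with adjusted p up to 0.0800 and 0.143. The enzymes of the vitamin K cycle, Ggcx, Vkorc1 and Vkorc1l1, had differences of -0.05, -0.09 and -0.07 and did not pass.

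All 32 cofactors and regulators of Runx factors were tested, of which none rose and 1 fell, with a median difference of -0.02. Cbfa2t3, a co-repressor of the ETO family, read 2.18, 1.94, 2.44 and 2.27 in young and 1.43, 1.76, 1.59 and 1.30 in aged pools and fell by 0.69 (SE 0.14, limma adjusted p = 0.0334). It failed to pass in 6 of the 8 fits that left out 1 pool, with adjusted p up to 0.0970. The Notch targets Heyl and Hey1, named after their values were seen, had differences of -0.72 (SE 0.18, limma adjusted p = 0.0845) and -0.53 (SE 0.14, limma adjusted p = 0.0986), with all aged pools below all young pools, and did not pass. The study names both genes for these arrays, so they are not independent of it. The Groucho co-repressors Tle1, Tle2, Tle3, Tle4 and Tle5 had differences of -0.38, 0.05, -0.01, 0.18 and -0.08, the acetyltransferase genes Kat6a and Kat6b of -0.08 and 0.01, and Smad1 and Smad5 of 0.00 each. Of 12 Sox and partner genes 9 were tested and none passed in limma's fit. The largest differences were -0.61 in Sox8 (SE 0.16, limma adjusted p = 0.0973) and -0.34 in Sox6 (SE 0.21, limma adjusted p = 0.578).

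**Figure D4:**
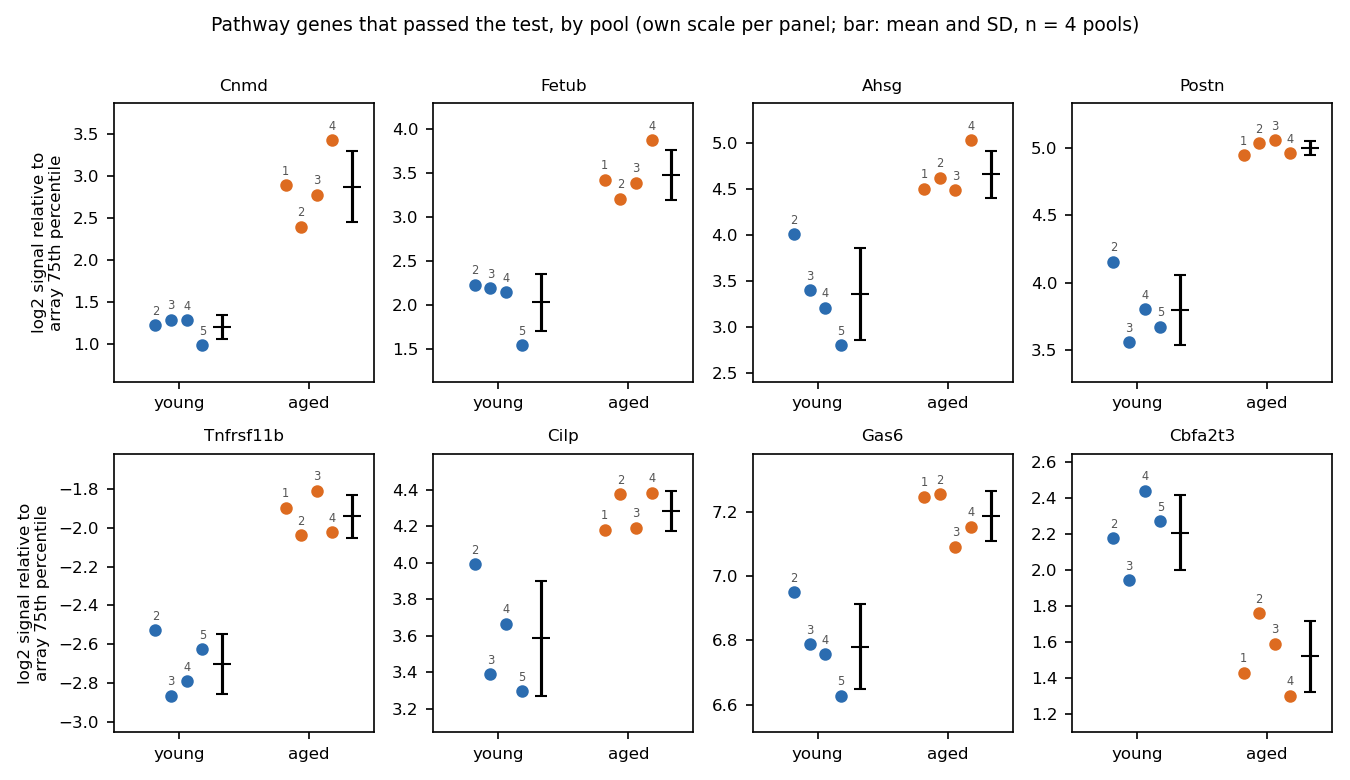
Level of the 8 related genes that passed limma's test in each pool, as log2 signal over the 75th percentile of its array, each panel with its own scale. Points are pools (blue young, orange aged) and bars the mean and SD of 4 pools; Cnmd, Fetub, Ahsg, Postn, Tnfrsf11b, Cilp and Gas6 have all aged pools above all young pools, and Cbfa2t3 has them below.

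Markers of cells that the gate should hold or remove were read on the same arrays. Of 10 cMSC identity genes all were tested, Pdgfra differed by -0.21 without passing, Ly6a, which encodes Sca-1, differed by 0.67 with all aged pools above all young pools (limma adjusted p = 0.0516), Thy1 fell by 0.71 (limma adjusted p = 0.0476) and Pdpn rose by 0.39 (limma adjusted p = 0.0334). Ptprc, which encodes CD45, read 1.25 to 1.48 in young and 1.25 to 1.57 in aged pools, and none of 12 tested macrophage genes passed. The summed linear signal of those genes, relative to the 75th percentile, was 25.9 to 38.4 in young and 31.6 to 47.4 in aged pools, of which Itgam alone made up 69.6% to 81.4%. Without Itgam the sum was 5.51 to 9.61 in young and 7.54 to 11.8 in aged pools. None of 6 tested T and NK cell, 2 B cell, 8 endothelial and 9 smooth muscle and pericyte genes passed. All aged pools lay above all young pools in 2 of these genes, Cd3d and Lck (0.76 each). Cd3d was well above background in only 1 young pool. All aged pools lay below in Tek (-0.33) and Myh11 (-0.62), and the other genes of these lists overlapped. Over all genes tested, 6.68% lay above and 4.05% below without overlap.

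Other markers moved with age. Of 6 tested neutrophil genes 3 rose. The summed signal of the 6 was 1.89 to 2.65 in young and 3.63 to 10.5 in aged pools. Ly6g made up 24.3% to 55.3% of the sum, and the highest sum was that of aged replicate 4. S100a9 differed by 4.32 (SE 0.87). It read 2.36 in aged replicate 4 and -0.49 to 0.37 in the other aged pools. The S100a9 difference rests in part on young replicate 3, where the gene was not well above background. Of 10 tested cardiomyocyte genes 2, Tnni3 and Pln, fell, of which Pln was well above background in only 2 aged pools, and the sum was 9.88 to 12.1 in young and 5.78 to 9.78 in aged pools. Of 4 tested mesothelial genes 1, Dmkn, rose by 3.98 (SE 0.22). The others, Msln, Krt18 and Wt1, differed by -0.63, -0.25 and 0.75 and did not pass. Upk3b, Upk1b, Lrrn4, Krt8 and Krt19 did not reach the limit in either group. Of 5 tested Schwann cell genes Mbp rose and Ngfr fell. Of 6 tested valve and cartilage-like genes 1 was Comp, and of the other 5 none passed, while Acan and Hapln1 did not reach the limit. The calls of Dmkn and Mbp held in limma fits without any 1 pool, and those of Thy1, Pdpn, the neutrophil and cardiomyocyte genes and Ngfr were lost in 6 to 8 of the 8. Thy1, S100a9 and Dmkn are also listed by the study as changed on these arrays, so their array values are not independent of it. For Thy1 the study has evidence beyond the arrays. It reports less of its protein CD90 by flow cytometry, and less Thy1 mRNA, in aged cMSCs. The part of the cells that these markers stand for in the values of Runx1, Comp and Spp1 was not tested.

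The genes whose level followed a member most closely over the 8 pools were taken from 14473 genes with a symbol and a signal well above background on all arrays, by Pearson's r of the log2 signal. For Runx1 they were Postn (r = 0.996) and Gldc (r = 0.991), and with the group means removed r was 0.937 and 0.853. For Comp they were Ddah1 (r = 0.992) and Naip2 (r = 0.986), and 0.942 and 0.929 with the group means removed. For these genes the age difference is part of r, as Postn, Gldc, Ddah1 and Naip2 differed by 1.20, 0.98, 1.31 and 1.48. For Runx2 they were Nr2f1 and Mnat1, for Cbfb Atxn2 and Usp33, for Sox9 Mettl26 and Anapc11, for Sp7 Rpl7 and Asphd1, for Alpl Naa50 and Frmd8 and for Mgp Eid3 and Rock2, with r from 0.956 to 0.993. The 8 points share a slide and the scaling of each array, and the highest of so many values is given as a description with no test.

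**Figure D5:**
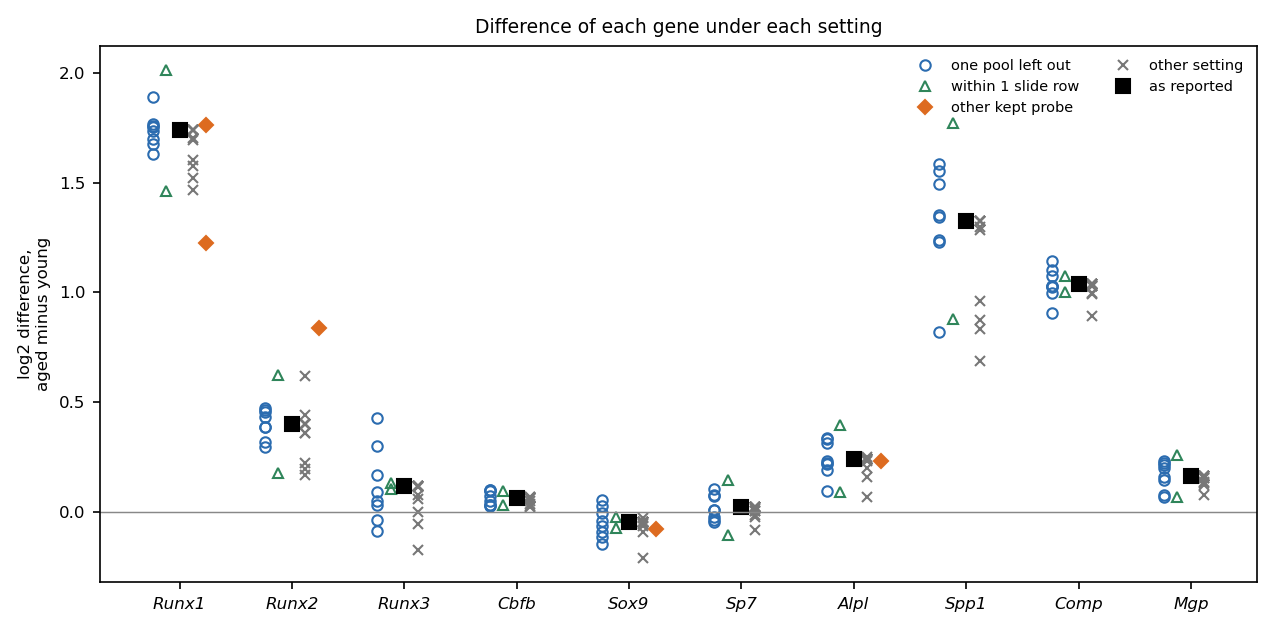
Difference between aged and young pools on the log2 scale for each of the 10 genes as reported (black squares), with 1 pool left out (circles), within 1 row of the slide (triangles), on another probe above background (diamonds) and under other processing settings (crosses). Runx1 stayed between 1.23 and 2.02 and Comp between 0.89 and 1.14, while Runx3, Sox9 and Sp7 took both signs.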

How the data were processed

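The authors deposited scanner output extracted with Agilent Feature Extraction 10.10.1.1, whose processed signal is a background-subtracted intensity, and also a log2 table for these 8 arrays that the authors had quantile-normalized. Control spots and outlier spots were left out, each array's 75th percentile was subtracted from the log2 processed signal, and a mean was taken over the spots of 1 probe. A probe was kept if it stood well above background in every pool of young or of aged mice, and the brightest represented its gene. Symbols came from a RefSeq table (GRCm38.p6), by accession, for 32994 probes, and otherwise from the array files.

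Groups came from the labels. The groups were compared in R 4.3.3 with limma 3.58.1, checked on simulated data, with Benjamini-Hochberg adjustment over 20219 genes and a threshold of 0.05. The members and the gene lists were chosen with earlier results of these data known. Genes named by rule were all members, up to 4 passing genes with the largest change per list or the 2 largest where none passed, and the 2 genes most like each member. Further list and marker genes were named outside this rule, some of them after their values were seen. Tables were made with pandas 2.3.3. Alternatives were quantile and median scaling, normexp with an offset of 50, other filters and probe rules, blocks, variance options, the authors' log2 table, the methods' thresholds and leaving out each pool. The authors' fold changes and p values were not used. The number of arrays limits the precision.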

Additional observations from a re-analysis of the deposited data

Results flagged for a closer look

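The probes of the members that were above background were examined for single outlying pools, and so were the passing list genes, Sox8 and Sox6. Other genes named above were not examined in this way. In 2 of 50 groups of 4 pools, 1 pool stood apart from the other 3 by more than Dixon's 95% limit. Chance gives about 1 such group in 20. The Sox9 probe A_55_P2745144 read -0.66 in aged replicate 2, where the nearest aged pool read -0.37. Fetub read 1.55 in young replicate 5, where the nearest young pool read 2.15. No explanation was tested for either.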

How the results depend on the processing

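The counts of 479 higher and 162 lower genes became 201 and 45 with no filter on dim probes, 14 and 2 with the pool number as a replicate block, 207 and 51 with the mouse code as a replicate block, and 258 to 375 and 68 to 159 with 1 pool left out. Genes that fell numbered 379 with array weights and 255 at the methods' thresholds. Of the related genes, 7 rose and 1 fell. These were 4 and 0 with no filter, 0 and 0 with the pool number and 3 and 0 with the mouse code as a block, and 4 to 9 and 0 to 4 with 1 pool left out. The fallen genes numbered 0 with median scaling, 2 with quantile normalization or the mean of all kept probes, 3 with normexp or the authors' table, 6 with the trend and robust options, 11 with array weights and 8 at the methods' thresholds. Members among the higher genes were 2, and 0 with the pool number as a block. In that block young replicate 5 and aged replicate 1 have no partner and add nothing to the difference, so its low counts also reflect fewer pools. Deviations of same-numbered pools from their group means correlated at 0.18, -0.17 and -0.27 for numbers 2, 3 and 4. Pools of different number ran from -0.25 to 0.33, so these values cannot tell whether pools were handled in pairs. The main fit did not pair them. Young replicate 5 and aged replicate 1, of the same mouse code, correlated at 0.14. No alternative turned the sign of Runx1 or Comp. Under normexp Runx1 was 1.47, Runx2 0.17 and Spp1 0.69. Dim probes such as those of Runx2, Runx3 and Spp1 are limited by signal over background, and 4 pools a group limit every value.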
